A study of Rattus norvegicus with 2 samples.

Results

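Orexin and melanin-concentrating hormone (MCH) are peptides made by separate groups of neurons in the lateral hypothalamus. The genes of both systems were taken by their symbols from the deposited table of rat transcripts, and 5 of 5 were found among the 22777 genes listed. They are the peptide genes Hcrt and Pmch and the receptor genes Hcrtr1, Hcrtr2 and Mchr1. Each was listed with 1 transcript, so the gene value is the value of that transcript. The samples were hypothalami of female Sprague Dawley rats at 2 stages. The prepubertal group was killed on postnatal day 25 and the pubertal group on postnatal day 35, in the first estrus. The labels name no treatment and no mutant allele for either group. The study's methods name 3 rats for each group, while the deposited data hold 1 sample for each. How the rats relate to that sample is not given in the sources used here. There is therefore no spread between animals, no difference between the stages was tested, and stage, age, estrous phase and library cannot be told apart.

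Hcrt encodes the precursor of orexin A and orexin B, which hold an animal awake and promote feeding. Hcrtr1 binds orexin A better than orexin B, and Hcrtr2 binds both. Pmch encodes the precursor of MCH and of the neuropeptides EI and GE. MCH promotes feeding and sleep, and Mchr1 is its receptor in rodents. Both kinds of neuron send fibres far outside the hypothalamus, so the receptors are found in many brain regions.

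Levels are given as FPKM, the fragments of a transcript scaled to its length and to the total of fragments mapped, which is a level per length and can be compared between genes. The stages were compared by log2 of (pubertal FPKM + 1) over (prepubertal FPKM + 1), so a positive value stands for a higher level at puberty. The low FPKM of each library lay on whole multiples of a step set by transcript length, and from these steps the totals behind the FPKM came to about 20700000 fragments before puberty and 16150000 at puberty. This gave the approximate number of fragments behind each level. Intervals are exact 95% intervals for these fragment numbers. They cover counting error only and say nothing about the spread between rats.

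In the FPKM as deposited, both peptide genes were higher in the pubertal library by more than counting error. The 3 receptor genes differed between the libraries by less. For Hcrt and Hcrtr2 this depended on the scaling, as given below. Many genes differed by more than counting error. Of 14290 genes with 1 transcript and enough fragments for an interval, 17.1% were higher and 20.1% lower by more than counting error, and of the 5688 with at least 1000 fragments over both libraries 28% were higher and 30.9% lower. Pmch differed most, by 1.63-fold in FPKM. It was 1 of 5 members past 1.5-fold higher in FPKM + 1, against 1.81% of the 18052 genes with FPKM above 0 in a library. With a pseudocount of 0.1 in place of 1 this share was 7.31%. Of the members, 0 were past 1.5-fold lower, against 2.34% of all genes. Past 2-fold, 0 of 5 members were higher and 0 lower, against 0.388% and 0.471% of all genes. The median log2 ratio over all these genes was -0.01. The counts of members change with the scaling. With 9 other hypothalamic peptide genes made equal, Pmch (log2 ratio 0.40) was not past 1.5-fold. With the reference gene Actb made equal, Pmch (1.11) was past 2-fold and Hcrt (0.75) past 1.5-fold. The shares of all genes past each fold were not recomputed under these 2 scalings.

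Pmch (ENSRNOG00000004632) was at 1675 FPKM before puberty and at 2723 FPKM in the pubertal library. With these levels it stood 39th and 25th of all genes listed, among mitochondrial, ribosomal protein and myelin genes. About 16991 and 21767 fragments lay behind the levels. The log2 ratio was 0.70, with a counting interval of 0.67 to 0.73. Of the 64 other genes with a mean FPKM within 2-fold of that of Pmch, 1 had a log2 ratio at least as high. It was Hbb, the gene of the beta chain of haemoglobin, named after its values were seen, with 2130 and 5898 FPKM. The median of these 64 genes was 0.22. In whole hypothalamus, more MCH neurons in the sample and more Pmch RNA per neuron cannot be told apart, and the same holds for every gene below.

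Hcrt (ENSRNOG00000018892) was at 195.9 FPKM before puberty and at 248.6 FPKM in the pubertal library, which placed it 566th and 472nd of all genes listed. The levels differed 1.27-fold, with a counting interval of 1.17 to 1.37. The log2 ratio was 0.34 (0.23 to 0.46). The fragment numbers, about 1269 and 1277, were nearly equal, and the difference in level goes with the smaller fitted total of the pubertal library. Among 810 other genes with a mean FPKM within 2-fold, 45 (5.56%) had a log2 ratio at least as high.

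**Figure D1:**
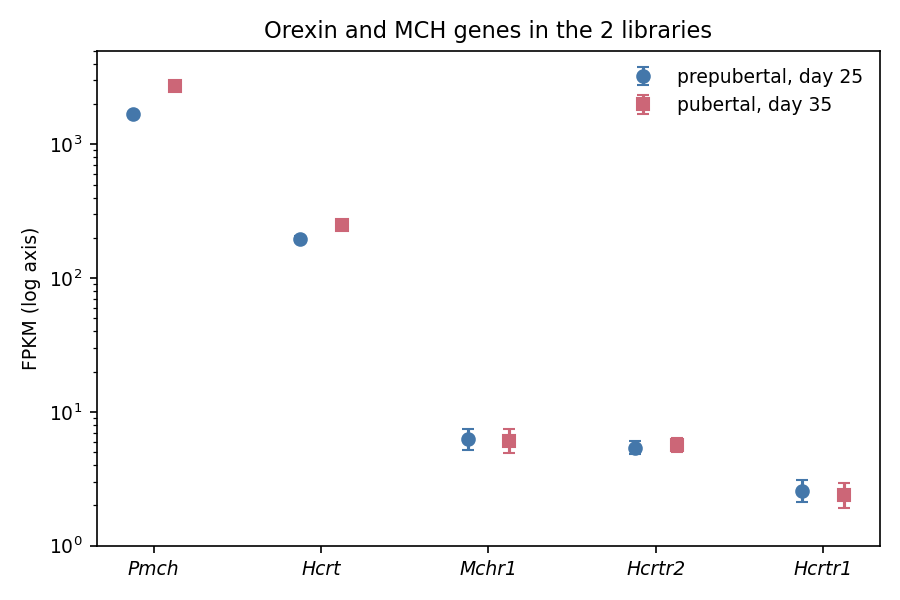
FPKM (log axis) of the 5 genes in the prepubertal (circles) and pubertal (squares) library, 1 library per stage, with exact 95% counting intervals as bars. The peptide genes Pmch and Hcrt lie at 195.9 to 2723 FPKM and are higher in the pubertal library, whereas the receptor genes lie at 2.384 to 6.236 FPKM with intervals that overlap.

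The receptor genes were far below their ligands. Mchr1 (ENSRNOG00000018895) was at 6.236 FPKM before puberty and at 6.086 FPKM in the pubertal library. Its log2 ratio was -0.03, and the counting interval of -0.37 to 0.31 corresponds to pubertal FPKM of 0.740 to 1.29 times the prepubertal FPKM. About 124 and 95 fragments lay behind these levels.

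Hcrtr2 (ENSRNOG00000011251) had 5.402 and 5.648 FPKM, from about 317 and 259 fragments. The log2 ratio was 0.05 (-0.15 to 0.26). Hcrtr1 (ENSRNOG00000013838) was the lowest of the 5 genes, with 2.567 and 2.384 FPKM from about 117 and 85 fragments. The log2 ratio was -0.08 (-0.37 to 0.22). In plain FPKM the counting intervals reached up to 1.24-fold higher for both orexin receptors, and this range overlaps the interval of Hcrt (1.17 to 1.37). The 1.63-fold of Pmch lay outside the interval of Mchr1.

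The order of the levels was the same in both libraries, with Pmch highest, then Hcrt, Mchr1, Hcrtr2 and Hcrtr1. Mchr1 and Hcrtr2 did not differ beyond counting error, with Mchr1 at 1.15 times the FPKM of Hcrtr2 (0.932 to 1.43) before puberty and 1.08 times (0.845 to 1.37) at puberty. Hcrtr2 was above Hcrtr1, 2.1 times (1.69 to 2.62) before puberty and 2.37 times (1.84 to 3.05) at puberty. The other neighbours in the order were apart by more than counting error in both libraries.

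A ratio of 2 genes within a library does not depend on how the libraries were scaled to each other. Pmch had 8.55 times the FPKM of Hcrt (8.08 to 9.06) before puberty and 11.0 times (10.3 to 11.6) at puberty, a log2 difference of 0.36. These intervals do not overlap, so the difference between Pmch and Hcrt was larger than counting error. The ratio of a peptide to its receptor also differed between the libraries for MCH. Pmch had 269 times the FPKM of Mchr1 (225 to 323) before puberty and 447 times (365 to 552) at puberty. For orexin the corresponding intervals overlapped. Hcrt had 36.3 times the FPKM of Hcrtr2 (32.0 to 41.2) before puberty and 44.0 times (38.5 to 50.5) at puberty. Against Hcrtr1 it was 76.3 times (62.9 to 92.8) and 104 times (83.4 to 131).

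**Figure D2:**
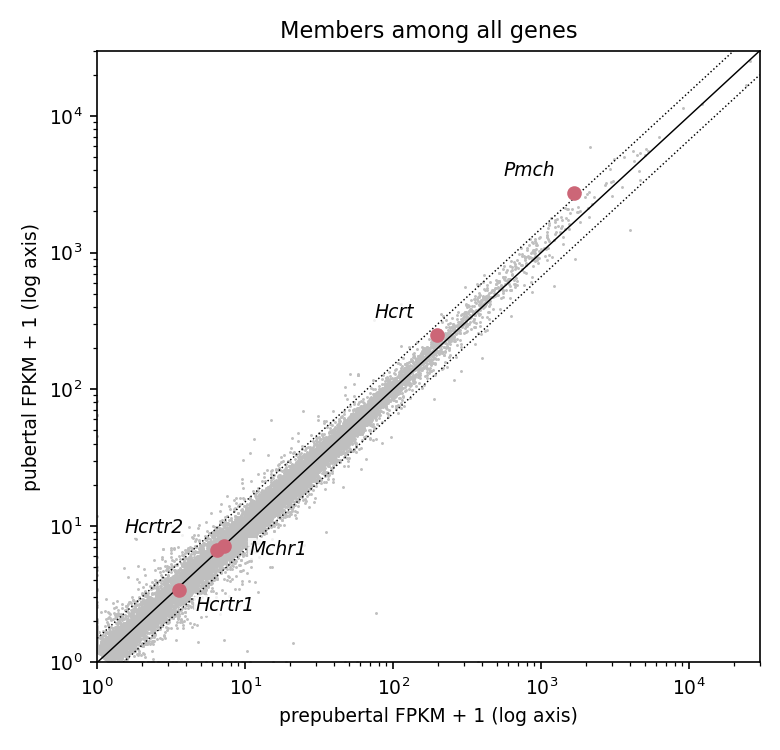
Pubertal against prepubertal FPKM + 1 (both log axes) of genes with a mean FPKM of at least 0.1 (grey) and of the 5 members (red). The solid line marks equal levels and the dotted lines 1.5-fold differences. Pmch lies just beyond the upper dotted line, Hcrt between it and the solid line, and the 3 receptor genes near the solid line.

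Promoter sequences are shown for the orexin system, the members for which the table of promoters used here has entries. They are the RefSeq windows of the build GRCr8, from 250 bases before to 50 bases after the annotated start. They are not coordinates of the build used for the deposited files. Windows of 3 of the 5 genes, Hcrt, Hcrtr1 and Hcrtr2, were found. The sequences read 5′ to 3′ on the strand of the gene, and capitals mark matches to the motifs searched.
Hcrt, chr10:86191475-86191774, minus strand: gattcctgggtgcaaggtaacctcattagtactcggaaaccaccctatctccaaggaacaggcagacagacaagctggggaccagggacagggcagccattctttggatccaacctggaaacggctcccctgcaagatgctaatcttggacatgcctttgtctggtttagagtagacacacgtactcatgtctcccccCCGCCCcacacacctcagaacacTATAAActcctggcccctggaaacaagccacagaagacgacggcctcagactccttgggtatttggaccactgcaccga
Hcrtr1, chr5:147770801-147771100, minus strand: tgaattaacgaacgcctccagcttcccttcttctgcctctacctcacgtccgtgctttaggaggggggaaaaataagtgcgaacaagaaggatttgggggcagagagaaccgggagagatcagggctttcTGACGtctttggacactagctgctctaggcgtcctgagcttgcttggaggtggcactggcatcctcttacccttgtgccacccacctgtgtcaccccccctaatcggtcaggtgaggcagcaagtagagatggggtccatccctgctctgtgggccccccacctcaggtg
Hcrtr2, chr8:85986356-85986655, minus strand: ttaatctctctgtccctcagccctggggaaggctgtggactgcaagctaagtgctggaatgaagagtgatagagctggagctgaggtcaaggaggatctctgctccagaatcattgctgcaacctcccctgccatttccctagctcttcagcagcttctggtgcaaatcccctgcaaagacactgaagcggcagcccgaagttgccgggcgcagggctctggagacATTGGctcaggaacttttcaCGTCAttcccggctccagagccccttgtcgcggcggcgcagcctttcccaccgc

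The motifs were searched on both strands. They were the TATA box, written TATAAA, the GC box, written GGGCGG, and the CCAAT box. The half-site of the cyclic AMP response element was searched as TGACG on its own and within the whole element. The Hcrt window holds TATAAA at bases 222 to 227, where base 1 is the 5′ end. TATAAA is found in 14.2% of the 33469 promoter windows of the table. Hcrt also holds the GC box on the other strand at bases 199 to 204, as do 33.1% of all windows on either strand. Neither receptor window holds TATAAA. The Hcrtr1 window holds TGACG at bases 131 to 135. The Hcrtr2 window holds it on the other strand at bases 247 to 251, beside a CCAAT box on the other strand at bases 227 to 231. TGACG is found in 21.2% and CCAAT in 37.5% of all windows. The whole element, TGACGTCA, was found in 1.83% of all windows and in none of the 3. A match describes the letters and does not show a site in use.

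Pmch lies inside the interval of Parpbp in GRCr8, a DNA repair gene for which RefSeq gives AROM among its synonyms. AROM stands for antisense RNA overlapping MCH. The libraries were strand-specific. Parpbp itself had 0.2536 FPKM before puberty and 0.3862 FPKM at puberty, so its level was minute beside that of Pmch.

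The lists below are read against all 18052 genes, of which 49% were higher at puberty. Past 1.5-fold, 1.81% of these genes were higher and 2.34% lower. A difference is called larger than counting error where the interval of a gene with 1 transcript leaves out 0. Of the 6 genes known from orexin neurons, 5 could be compared. Their median log2 ratio was -0.17, with 1 higher, 4 lower and 0 past 1.5-fold. Of the 4 with an interval, 3 were lower and 0 higher by more than counting error. Beside them stand the 17.1% higher and 20.1% lower of all genes with an interval. These shares rise with fragment number, to 28% and 30.9% of genes with at least 1000 fragments over both libraries. When Actb, a common reference gene, was made equal in the libraries, 3 of 5 were above 0 with a median of 0.22, but so were 83.4% of all genes, with a median of 0.30. Pdyn, the precursor of dynorphin that orexin neurons release together with orexin, had 21.49 and 23.32 FPKM (log2 ratio 0.11, -0.02 to 0.24). Nptx2, a secreted pentraxin that gathers glutamate receptors at synapses, had 31.79 and 28.07 FPKM (-0.17, -0.30 to -0.04). Slc17a6, the vesicular glutamate transporter of most hypothalamic glutamate neurons, had 205.6 and 187.5 FPKM (-0.13).

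Lhx9, a LIM homeodomain factor of developing orexin neurons, had 4.189 and 2.586 FPKM, a log2 ratio of -0.53 over its 2 transcripts. Igfbp3, a binding protein for insulin-like growth factors, had 3.787 and 2.273 FPKM (-0.55, -0.85 to -0.24). Both are also made in other cells, Lhx9 in thalamic neurons among them. Qrfp, the precursor of an RF-amide peptide of the hypothalamus that promotes feeding, had 0.8071 FPKM before puberty and was listed at 0 at puberty. Its transcript is short, with 375 nt, and this level rests on few fragments. It was left out of the comparison, and no loss of Qrfp is read from these values.

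Of 5 genes known from MCH neurons, 2 were higher and 1 lower at puberty by more than counting error, against 17.1% and 20.1% of all genes. Among genes with at least 1000 fragments over both libraries these shares were 28% and 30.9%. The list had a median log2 ratio of 0.14, with 4 values above 0, 1 below and 0 past 1.5-fold. Cartpt, the precursor of the CART peptide that many MCH neurons make, had 119.3 and 151.9 FPKM (0.35, 0.24 to 0.45). Nucb2, the precursor of nesfatin-1, had 19.99 and 26.50 FPKM (0.39, 0.23 to 0.55). These are the pair that was higher by more than counting error.

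Tacr3, the neurokinin B receptor, had 5.087 and 5.691 FPKM (0.14, -0.12 to 0.38). The GABA-synthesizing enzymes Gad1 and Gad2, which are made in GABA neurons throughout the hypothalamus, had log2 ratios of -0.19 (-0.26 to -0.13) and 0.02 (-0.05 to 0.09). None of these partner genes is particular to the orexin or MCH neurons, so their levels also carry other neurons.

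The genes that process neuropeptide precursors are enzymes and 1 chaperone. Of 4 genes compared, 1 was above and 3 below 0, 0 past 1.5-fold, with a median log2 ratio of -0.15. With equal medians of all genes 2 of 4 were above 0, as were 56.7% of all genes, and with equal Actb 3 of 4 (median 0.25), against 83.4%. Cpe, the carboxypeptidase that trims basic residues after cleavage, had 854 FPKM before puberty and 609.8 FPKM at puberty (-0.49, -0.51 to -0.46). Pcsk2, a prohormone convertase, had 129 and 105 FPKM (-0.29, -0.35 to -0.24). Scg5, the chaperone of Pcsk2, had 506.9 and 561.9 FPKM (0.15, 0.11 to 0.19). Pam, which amidates peptides such as the orexins, had 127.7 and 126.4 FPKM over 6 transcripts (-0.01). Pcsk1 had no entry under that symbol and was not analysed here.

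**Figure D3:**
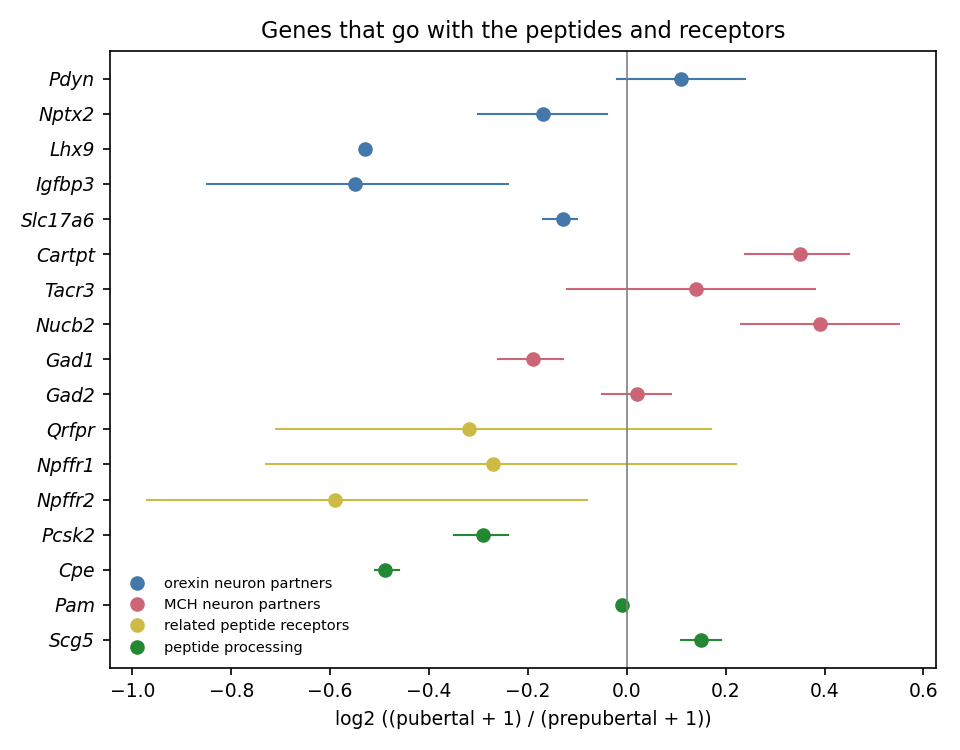
Log2 ratio of (pubertal FPKM + 1) over (prepubertal FPKM + 1) of 17 genes of the orexin neuron, MCH neuron, related receptor and peptide processing lists, 1 library per stage. Bars are exact 95% counting intervals, given for genes with 1 transcript. Cartpt and Nucb2 lie to the right at 0.35 and 0.39, and Cpe, Lhx9, Igfbp3 and Npffr2 lie farthest to the left.

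Receptors related in sequence to the orexin receptors were scarce. Qrfpr, the receptor of the Qrfp peptide, had 0.6909 and 0.3522 FPKM, and Npffr1 had 1.621 and 1.181 FPKM. Npffr2, like Npffr1 a receptor of neuropeptide FF, had 1.062 and 0.3691 FPKM. All 3 were lower at puberty, with a median log2 ratio of -0.32, which became -0.81 with a pseudocount of 0.1. Of them 1 was past 1.5-fold lower, against 2.34% of all genes. They rest on at most 35 fragments per library, and the intervals of Qrfpr (-0.71 to 0.17) and Npffr1 (-0.73 to 0.22) include 0.

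The next list holds G proteins, phospholipases, adenylyl cyclase, arrestins and channels through which orexin and MCH receptors act. Of 16 genes, 4 were above and 12 below 0 on the log2 scale, with a median of -0.10. Past 1.5-fold there were 0, against 1.81% higher and 2.34% lower of all genes. With equal medians of all genes 8 of 16 were above 0, against 56.7% of all genes, and with equal Actb 15 of 16 (median 0.27), against 83.4% (median 0.30). Among the 12 with an interval, 1 was higher and 5 lower by more than counting error, against 17.1% and 20.1% of all genes. With at least 1000 fragments over both libraries, 28% of genes were higher and 30.9% lower. Gnai2, an inhibitory G protein subunit, was the gene with the highest level and the highest log2 ratio, with 124.5 and 137 FPKM (0.14, 0.08 to 0.20). Kcnj3, a subunit of the potassium channels that Gi-coupled receptors open, had the lowest log2 ratio, with 16.48 and 12.27 FPKM (-0.40, -0.53 to -0.26). These genes act for many receptors.

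Genes of the arousal systems that orexin fibres reach were split. Of 6 genes compared, 3 were above and 3 below 0, with 1 past 1.5-fold in each direction, against 1.81% higher and 2.34% lower of all genes. Of the 5 with an interval, 2 were higher and 1 lower by more than counting error, against 17.1% and 20.1% of all genes. Th, the rate-limiting enzyme of dopamine synthesis, had 16.40 FPKM before puberty and 30.66 FPKM at puberty (0.86, 0.71 to 1.02), the highest mean level and log2 ratio of this list. Before puberty Hdc, the enzyme that makes histamine, was level with it at 16.65 FPKM. Which cells made the Th RNA was not tested. Hdc and the genes named after Chat were chosen after their values were seen. Chat, the enzyme that makes acetylcholine, had 2.384 and 0.4624 FPKM (-1.21, -1.51 to -0.83), from about 79 and 12 fragments. The transporters Slc6a2 and Slc6a4 and the enzyme Dbh, which mark noradrenaline and serotonin neurons of the brainstem, were listed at 0.02019 to 0.05162 FPKM, under 3 fragments each. Tph2, the enzyme of serotonin synthesis in neurons, was detected, with 1.015 and 0.7152 FPKM (-0.23, -0.54 to 0.09) from about 49 and 27 fragments. Slc18a3 had no entry under that symbol and was not analysed here.

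The tissue of the samples bears on how the peptide levels can be read. Of 16 marker genes of hypothalamic nuclei, 15 could be compared, 11 above 0 and 4 below. The transcription factors among them were split, with log2 ratios of -0.08 (-0.38 to 0.23) for Nkx2-1, -0.42 (-0.81 to -0.01) for Foxb1, -0.31 (-0.75 to 0.17) for Otp, 0.18 (-0.18 to 0.52) for Nr5a1, 0.10 (-0.21 to 0.42) for Fezf1 and 0.24 (0.08 to 0.41) for Sim1. Of the 9 peptide genes on that list that could be compared, 8 had log2 ratios above 0 and 1, Avp, below, against 49% of all genes above 0. The median was 0.24 and the range -0.08 to 0.74. Of the 8 with an interval, 5 were higher and 0 lower by more than counting error, against 17.1% and 20.1% of all genes. For genes with at least 1000 fragments over both libraries the shares were 28% and 30.9%. The intervals of Avp (-0.19 to 0.02), Npy (-0.03 to 0.62) and Crh (-0.21 to 0.47) include 0. Pmch lay within this range, below Oxt (0.74) and above Pomc (0.57), and Hcrt lay beside Agrp (0.33). Markers of neighbouring brain were mostly lower, with 5 of 6 thalamic genes lower (median -0.40) and 4 of 6 telencephalic genes lower (median -0.38). Their summed levels were 499.1 and 512.2 FPKM for thalamus and 67.45 and 29.15 FPKM for telencephalon. Calb2 (322.7 and 374.3 FPKM) makes up most of the first sum and is the thalamic gene that was higher, and Camk2a (59.56 and 24.84 FPKM) makes up most of the second. The 8 general neuron genes had a median of -0.07. Of the 6 with an interval, 0 were higher and 4 lower by more than counting error, against the shares above. The 4 red blood cell genes were all past 1.5-fold higher (median 0.63), against 1.81% of all genes. The medians of 5 oligodendrocyte and 5 choroid plexus genes were 0.06 and 0.04, with 3 higher and 2 lower in each list. All 7 pituitary genes were listed above 0 in the pubertal library and 5 in the prepubertal one, with summed levels of 44.47 and 31.78 FPKM. Pou1f1 rested on about 2 fragments at puberty. Prl and Fshb, at 3.395 and 0.3963 FPKM at puberty, were listed at 0 before it. Of the other 5, Gh1 was higher (1.44, 0.82 to 1.97), and the intervals of Cga, Tshb, Lhb and Pou1f1 include 0. The part of these tissues in the levels of Pmch and Hcrt was not tested.

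Choice of scale changed the size of the difference for both peptide genes. Pmch was higher by more than counting error under each scaling tried, whereas Hcrt was not under 1 of them. When the pubertal library was scaled so that the 9 other peptide genes had an equal median, an alternative chosen after the values were seen, the log2 ratio was 0.40 for Pmch (0.37 to 0.43) and 0.04 for Hcrt (-0.07 to 0.15). Scaled to equal Actb, which had 763.3 and 576.4 FPKM, it was 1.11 for Pmch and 0.75 for Hcrt. Each scaling moves all genes in 1 direction, with a median over all genes of -0.22 by the peptide genes and 0.30 by Actb, and the receptor genes, which lie near 0, took either sign. Mchr1 was at -0.29 by the peptide genes and at 0.32 by Actb, Hcrtr2 at -0.20 and 0.41, and Hcrtr1 at -0.28 and 0.22. By Actb the interval of Hcrtr2, 0.20 to 0.61, leaves out 0.

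**Figure D4:**
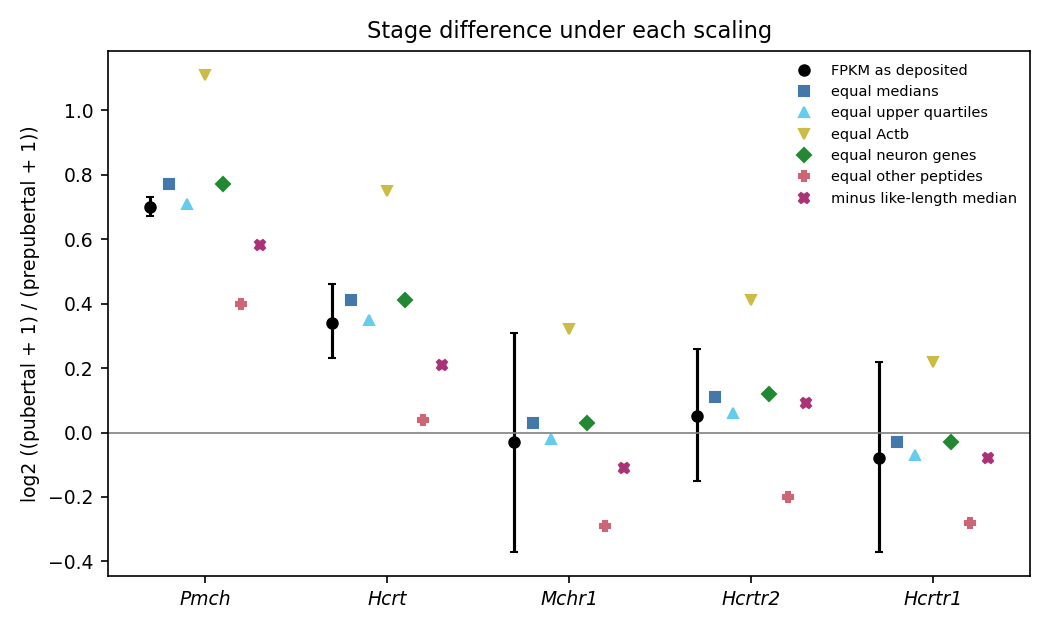
Log2 ratio of (pubertal FPKM + 1) over (prepubertal FPKM + 1) of the 5 members for the FPKM as deposited (black, with exact 95% counting intervals), for 5 scalings of the pubertal library, and after subtracting the median of genes of like length. Pmch stays between 0.40 and 1.11 and Hcrt between 0.04 and 0.75, while the receptor genes lie on either side of 0.

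Transcript length also went with the difference between the libraries. Among genes with 1 transcript and a mean FPKM of at least 10, the median log2 ratio was 0.05 for the 346 transcripts of 200 to under 500 nt, 0.13 for the 526 transcripts of 500 to under 800 nt, 0.00 for the 1625 of 2000 to under 3000 nt and -0.12 for the 414 of at least 5000 nt. Both peptide transcripts are short, Pmch with 745 nt and Hcrt with 568 nt, whereas those of Mchr1, Hcrtr1 and Hcrtr2 measure 1214, 2451 and 3091 nt. Of 481 genes within 1.2-fold of the length of Pmch, 4 (0.832%) had a log2 ratio at least as high, and the median over all of them was 0.12. Of 360 genes within 1.2-fold of the length of Hcrt, 76 (21.1%) had a log2 ratio at least as high, and the median was 0.13. After subtraction of these medians the log2 ratio was 0.58 for Pmch and 0.21 for Hcrt. The part of length in these differences was not tested further.

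**Figure D5:**
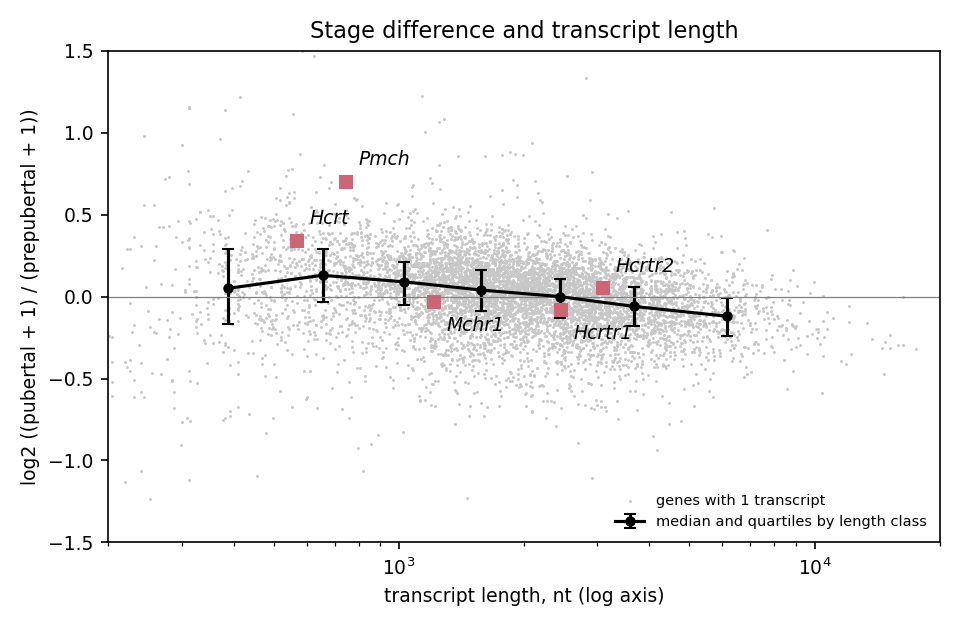
Log2 ratio of (pubertal FPKM + 1) over (prepubertal FPKM + 1) against transcript length in nt (log axis) for genes with 1 transcript and a mean FPKM of at least 10 (grey), with the median and quartiles of 7 length classes (black) and the 5 members (red). The median is 0.05 in the shortest class, and from 500 nt on medians decline from 0.13 to -0.12 at 5000 nt and above; Pmch lies above the upper quartile of its class at 0.70.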

How the data were processed

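Total RNA of rat hypothalamus was depleted of ribosomal RNA and made into strand-specific libraries, which were sequenced in paired ends. TopHat was used by the authors for alignment, Scripture and Cufflinks for assembly and Cuffdiff for the levels (the last 2 at version 2.1.1 in the submitters' processing notes, which give the build Rnor_5.0). The deposited values are FPKM per transcript, 1 column per stage. The deposited comparison table also holds fold changes, p-values and q-values, which were not used. Gene symbols and transcript lengths were taken from it, and the members' FPKM were the same in both tables.

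FPKM were summed per gene, and log2((pubertal + 1) / (prepubertal + 1)) was computed with a pseudocount of 1 and no filter beyond FPKM above 0 in a library. With 1 sample per stage no test was made. The totals behind the FPKM were fitted to genes with 1 transcript of 900 to under 6000 nt, on values of up to 10 fragments. Of these values, 95.6% of 1560 in the prepubertal and 96.4% of 1699 in the pubertal library came out whole within 0.05 fragments, after 255 and 250 nt were taken off the length. The fit was tested on fragment numbers simulated in the way the fit assumes. Such a test cannot show that the deposited FPKM were made that way. Fragment numbers are approximate, and the totals were taken as known in the intervals, which are Poisson for levels and Clopper-Pearson for ratios.

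Lists were compared over genes above 0 in both libraries with at least 3 fragments in 1 of them. The members, the lists and the rule for the genes named were chosen with earlier results of these data known. The rule named all members, all genes of the partner, related receptor and processing lists, and of the signalling and arousal lists the gene highest in level and those with the highest and lowest log2 ratio. The 3 genes nearest to each member were named by Euclidean distance over log2(FPKM + 1). Alternatives were a pseudocount of 0.1, other scalings and filters, the transcript with the highest FPKM and the FPKM of the comparison table. Promoters came from RefSeq (GRCr8). The lncRNA files were not used. Scripts ran in Python 3.11.15 (scipy 1.17.1, numpy 2.4.6, matplotlib 3.10.9, pandas 2.3.3).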

Additional observations from a re-analysis of the deposited data

How the results depend on the processing

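No paired analysis was possible because each stage has 1 sample. Of 65 values recomputed under an alternative that could change them, 44 moved by less than counting error, or less than 0.2 for list medians and 1.5 times for gene counts. The wide intervals of the receptor genes took in most of their alternatives, whereas most of those of Pmch moved by more. The transcript with the highest FPKM and the FPKM of the comparison table could change no value of a member, and genes at 0 in both libraries no count. For Pmch the log2 ratio was 0.77 with equal medians, 0.77 with equal neuron genes, 1.11 with equal Actb, 0.40 with the 9 other peptide genes made equal and 0.58 after subtraction of the median of genes of like length. The peptide scaling and this subtraction were chosen after the data were seen. For Hcrt it was 0.75, 0.04 and 0.21 with equal Actb, with the other peptide genes made equal and after that subtraction. With equal Actb, Hcrtr2 was at 0.41 and Mchr1 at 0.32, and with the other peptide genes made equal Hcrtr2 was at -0.20. Equal Actb also moved the list medians, to 0.22 for orexin neuron partners, 0.49 for MCH neuron partners, 0.25 for peptide processing, 0.27 for receptor signalling and 0.41 for arousal targets. A pseudocount of 0.1 moved the median of the related receptors to -0.81, and it raised the genes past 1.5-fold to 1320 higher and 1567 lower (7.31% and 8.68%) and those past 2-fold to 548 and 641. It adds weight to low levels, which rest on few fragments. Depth limits the receptor genes, of which Hcrtr1 rests on about 85 and Mchr1 on about 95 fragments at puberty.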

Other observations

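The genes whose levels were nearest to each member over the 2 libraries were named by distance alone, which rests on 2 values per gene. For Hcrt they were Prdx6 (190.1 and 247.6 FPKM), a peroxiredoxin, and Cct5 (202.6 and 254.8 FPKM), a subunit of the TRiC chaperonin, with the unnamed gene model AABR06000901.1 after them. For Pmch the nearest, Eef1a1 (1991 and 2563 FPKM), a translation elongation factor, was 0.264 away on the log2 scale, followed by the ribosomal protein gene Rps14 at 0.278 and the gene model AABR06090022.1 at 0.335. For the receptor genes the nearest lay within 0.010 of them, Ctu1 for Mchr1, Flt3 for Hcrtr2 and Cep135 for Hcrtr1, since many genes share such low levels. The next were Cntnap5b and R3hdm1 for Mchr1, Sardh and Asxl2 for Hcrtr2, and Wipf2 and Gpr135 for Hcrtr1.

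The histamine system, which orexin neurons excite, was described by 3 genes of the arousal list, chosen after their values were seen. Hdc, the enzyme that makes histamine in the tuberomammillary nucleus beside the orexin neurons, had 16.65 FPKM before puberty and 20.27 FPKM at puberty (log2 ratio 0.27, counting interval 0.11 to 0.42). The receptor genes Hrh1 and Hrh3 had log2 ratios of 0.17 (-0.14 to 0.47) and -0.08.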
